A study of Homo sapiens with 6 samples.

Results

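The subject is ATF4, the transcription factor that cells make when amino acids run short, together with 9 genes that act with it or under it (ATF3, ATF5, DDIT3, CEBPB, CEBPG, NUPR1, TRIB3, CHAC1 and PPP1R15A). These 10 genes were picked by name from the 19491 genes listed for PC-3 cells, an established human prostate cancer line. Each of the 10 had 1 entry in the tables, and all of them passed the filter on low read numbers in every comparison.

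A shortage of amino acids is sensed by the kinase GCN2, which phosphorylates the translation initiation factor eIF2alpha. Most translation then slows, whereas the mRNA of ATF4 is translated better because short upstream reading frames no longer hold ribosomes back. ATF4 is a leucine zipper (bZIP) protein that pairs with other bZIP proteins, often of the C/EBP family, and binds composite C/EBP-ATF sites in the genes for amino acid transporters, amino acid synthesis and stress effectors. Much of this control acts on translation, which RNA sequencing does not measure.

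PC-3 cells were left untreated (labelled as treated with none) or were incubated for 48 h with GPNA (L-gamma-glutamyl-p-nitroanilide, a glutamic acid derivative) or BenSer (O-benzylserine, a serine derivative). Both compounds were used as inhibitors of ASCT2, the glutamine transporter encoded by SLC1A5. GPNA was used at 1 mM and BenSer at 10 mM, and water was the diluent and vehicle of both. All cells grew in the same RPMI medium with serum and pyruvate, all were of this 1 cell line, and the labels name 2 libraries of total RNA per group.

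Library totals were 23077986 to 23227180 reads in the control, 25452745 to 25798967 after GPNA and 31943025 to 32178154 after BenSer. Values are counts divided by that total and expressed as CPM (counts scaled to a fixed library size), from which the reads themselves were recovered. A chi-square over genes, divided by its degrees of freedom, was 1.05 to 1.06 for libraries of the same group, where read sampling alone gives 1, and 5.50 to 20.7 for libraries of different groups. For this reason the pair from each group entered as a single merged sample, and no p-value for a treatment is given. Epithelial markers KRT8, KRT18 and EPCAM and the markers VIM and CD44 ranged from 91.8 to 289 CPM as group means. These libraries are of bulk RNA, so a difference in every cell and a difference in some of the cells cannot be told apart.

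To compare levels between genes, CPM was divided by the length of all annotated exons in kilobases. ATF4 (ENSG00000128272, chr22:39915700-39918688 of GRCh37, 2613 exon bases) was the most abundant of the 10 in all 3 groups, at 42.9 CPM per kilobase in the control, above 98.1% of the genes with a known length. TRIB3 (chr20:343479-378203) followed at 15.5 and PPP1R15A (chr19:49375469-49379316) at 13.04 CPM per kilobase. The other 7 genes lay between 1.91 and 5.94 CPM per kilobase, with CHAC1 (chr15:41245160-41248710) the lowest.

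The order of levels in the control ran from ATF4 through TRIB3, PPP1R15A, ATF5, CEBPG, DDIT3, ATF3, CEBPB and NUPR1 down to CHAC1. Neighbours whose libraries overlapped on this scale were ATF5 with CEBPG and ATF3 with CEBPB. With GPNA the order was ATF4, TRIB3, PPP1R15A, DDIT3, CEBPG, NUPR1, CEBPB, ATF5, ATF3 and CHAC1, where DDIT3 overlapped CEBPG and ATF5 overlapped ATF3. With BenSer, NUPR1 came next after PPP1R15A at 8.94 CPM per kilobase, then DDIT3 at 8.18, CEBPG at 6.79, CHAC1 at 5.52, ATF5 at 5.23, ATF3 at 4.52 and CEBPB at 4.48, the last pair overlapping. CHAC1 lay above 56.6% of genes in untreated cells, 72.1% after GPNA and 79.8% after BenSer, and NUPR1 above 70.4%, 80.4% and 87.5%. The level of NUPR1 per kilobase rests on 5508 annotated exon bases in 4 blocks, of which 16.5% are also exon of an unnamed long noncoding RNA on the same strand, which was not analysed here. That length is the largest of the 10 genes and lowers the place of NUPR1 in these orders. Without division by length, NUPR1 in the control (19.8 CPM) lay above ATF5 (17.2), ATF3 (16.1), CEBPB (7.36) and DDIT3 (5.66), and below CEBPG (23.7). Which of these exons the cells use was not tested.

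Promoter sequences (250 bases before to 50 after the gene start, from RefSeq on GRCh38.p14) were found for 9 of the 10 genes, the exception being NUPR1. The core of the composite C/EBP-ATF site, TGATGNAA on either strand, was present for ATF3, CEBPG and CHAC1, which is 3 of 9, and for 4.46% of all 27305 genes with a promoter. The cyclic AMP response element TGACGTCA, which ATF and CREB proteins can bind, was present for PPP1R15A and for 2.25% of all genes. The endoplasmic reticulum stress element (CCAAT and CCACG with 9 bases between them, on either strand) was found in none of the 9, and in 0.0916% of all genes. The 4 stretches are shown because they put a possible ATF4 contact beside genes that responded to different degrees. Capitals mark the motif, and the placement is by exact match to GRCh37. Base positions count from the RefSeq start, which differs from the start of the gene interval given for each gene in this report. The stretches of CHAC1, CEBPG and PPP1R15A lie inside those intervals, and that of ATF3 lies before its interval.
CHAC1, plus strand, chr15:41245430-41245497, with the motif on the opposite strand from base -209 to -202: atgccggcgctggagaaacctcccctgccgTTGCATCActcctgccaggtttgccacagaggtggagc
CEBPG, plus strand, chr19:33864947-33865014, motif from base -42 to -35: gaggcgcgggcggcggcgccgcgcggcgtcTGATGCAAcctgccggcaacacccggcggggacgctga
ATF3, plus strand, chr1:212738528-212738595, motif from base -191 to -184: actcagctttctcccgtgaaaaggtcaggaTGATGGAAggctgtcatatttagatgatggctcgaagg
PPP1R15A, plus strand, chr19:49375590-49375657, motif from base -58 to -51: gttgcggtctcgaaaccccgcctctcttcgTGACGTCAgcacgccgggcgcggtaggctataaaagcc
A match of letters is not a measured binding site, and sites outside these windows were not searched.

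With GPNA, 3 of the 10 genes were at least 1.5-fold higher than in the control (CHAC1, NUPR1 and TRIB3), and none was at least 1.5-fold lower. The fold was taken as a difference in log2(CPM + 1), on which 1.5-fold is 0.58. Among the 18828 genes tested, which averaged 5 or more reads per library in the treated or the control group, 0.34% were as much higher and 0.0637% as much lower. The 10 genes had a median difference of 0.26 with GPNA, against -0.028 for all genes tested. In both GPNA libraries, 9 of the 10 genes lay above both control libraries (22.4% of all genes did) and ATF5 lay below both (34.4%).

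With BenSer, 3 of the 10 genes were again at least 1.5-fold higher (CHAC1, NUPR1 and DDIT3), compared with 1.96% of 18976 genes tested, and none was 1.5-fold lower, compared with 1.58%. The median difference of the 10 genes was 0.36, against -0.028 for all genes. Here 8 genes lay above both control libraries (28.5% of all genes), ATF5 lay below both (37.5%) and CEBPB overlapped. The control libraries enter both comparisons, so the values with GPNA and with BenSer are not independent of each other.

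**Figure D1:**
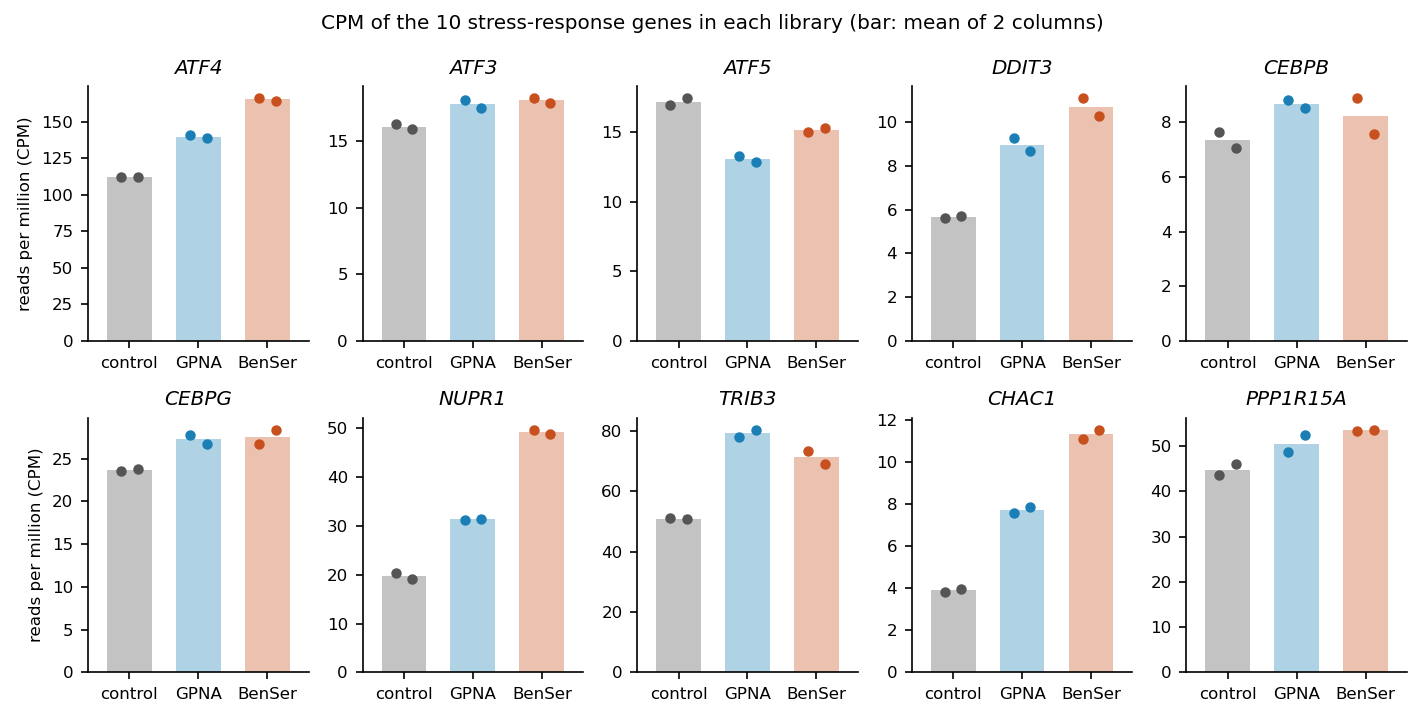
CPM of each gene in the 2 libraries of the control, GPNA and BenSer groups (points), with the mean as a bar and the vertical axis in CPM from 0. CHAC1 and NUPR1 are stepwise higher from control to GPNA to BenSer, TRIB3 is highest with GPNA, and ATF5 is highest in the control.

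ATF4 itself had 112.0 and 112.3 CPM in the control libraries, 140.7 and 138.6 after GPNA, and 166.0 and 164.4 after BenSer. The 3 groups did not overlap. ATF4 was 1.245-fold the control with GPNA (95% interval 1.20 to 1.29) and 1.47-fold with BenSer (1.42 to 1.52). Intervals of ratios are by the exact Clopper-Pearson method, from the reads of both libraries together, and hold counting error only. With BenSer the log2 difference of 0.55 was just short of the 1.5-fold limit, and scaling by TMM or by the size factors of DESeq2 put it at 0.60, past that limit. GENCODE lists 4 processed pseudogenes of ATF4, which were not analysed here, so reads that could have come from either copy cannot be assigned here.

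CHAC1 (ENSG00000128965), a gamma-glutamylcyclotransferase that breaks down glutathione, had the largest ratios of the 10 genes in both comparisons with the control. It was at 3.83 and 3.99 CPM in the control libraries, 7.60 and 7.86 after GPNA, and 11.1 and 11.6 after BenSer. All libraries of a group stood clear of the other groups, although the control values rest on only 181 reads in all. The ratio to the control was 1.98 with GPNA (1.65 to 2.37) and 2.90 with BenSer (2.46 to 3.43), and CHAC1 ranked 20 and 25 among all genes tested by the log2 difference.

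NUPR1 (ENSG00000176046, chr16:28544029-28550329, minus strand) encodes a small stress-induced chromatin protein. It had 20.3 and 19.2 CPM in the control libraries, 31.2 and 31.4 after GPNA, and 49.7 and 48.8 after BenSer. These groups did not overlap, and the values with BenSer were the farthest from the control. The ratio was 1.58 with GPNA (1.46 to 1.72) and 2.49 with BenSer (2.31 to 2.68).

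DDIT3 (ENSG00000175197, chr12:57910371-57915520, minus strand) encodes CHOP, a bZIP protein that can switch the stress response towards cell death. It had 5.60 and 5.72 CPM in the control libraries, 9.26 and 8.68 after GPNA, and 11.1 and 10.3 after BenSer, again with no overlap between groups. The ratio was 1.59 with GPNA (1.36 to 1.85) and 1.89 with BenSer (1.64 to 2.19). On the log2(CPM + 1) scale the GPNA difference of 0.58 fell short of the 1.5-fold limit in the next digit, at rank 65 of 18828, where 64 genes were called. Smaller pseudocounts, every other scaling tried and leaving out the second library of the control or of GPNA each put it past the limit.

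Of the annotated exon bases of DDIT3, 27.2% are also exon of MARS on the opposite strand, and whether the authors' counting used the strand is not given in the sources used here. MARS, the cytosolic methionyl-tRNA synthetase, averaged 102.0 CPM in untreated cells, 104.5 after GPNA and 131 after BenSer. Its ratio to the control was 1.02 with GPNA (0.985 to 1.07) and 1.29 with BenSer (1.24 to 1.33), smaller than those of DDIT3. A further protein-coding gene on the same strand shares 8.03% of the exon bases of DDIT3 and was not analysed here. The part of these shared bases in the DDIT3 values was not tested.

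**Figure D2:**
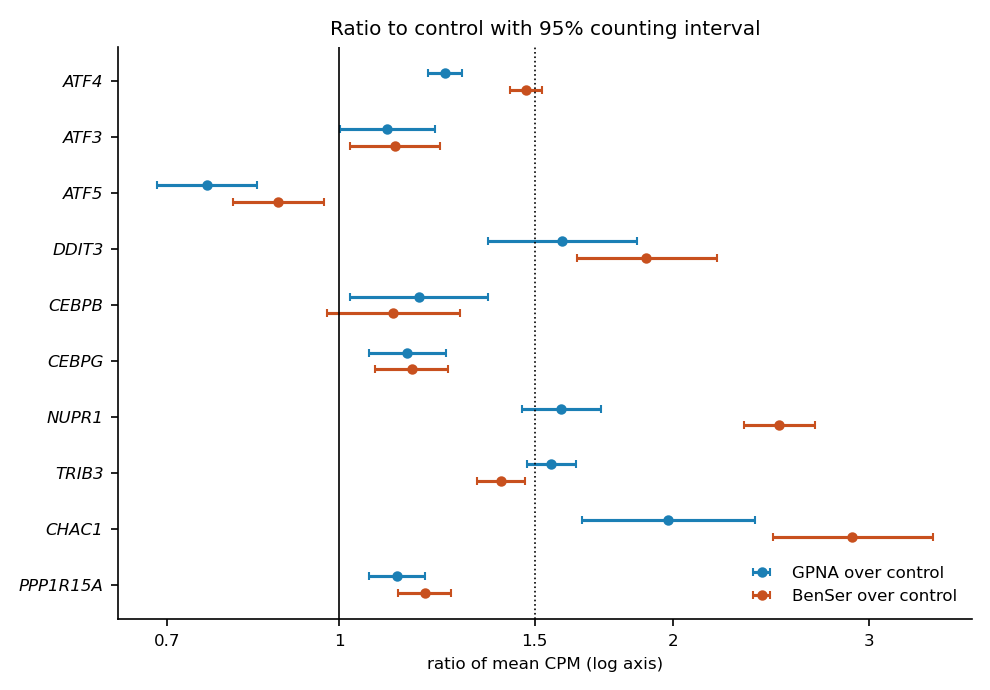
Ratio of mean CPM to the control for each gene (horizontal log axis) with GPNA in blue and BenSer in orange, and 95% counting intervals as bars. The solid line marks no difference and the dotted line 1.5-fold, which CHAC1, NUPR1, TRIB3 and DDIT3 pass with GPNA on this scale without a pseudocount.

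TRIB3 (ENSG00000101255) encodes a pseudokinase that binds ATF4 and CHOP and restrains them. It had 51.3 and 50.7 CPM in the control libraries, 77.9 and 80.5 after GPNA, and 73.4 and 69.1 after BenSer. Both treatments lay above the control, but GPNA lay above BenSer, an order that no other gene of the 10 showed without overlap of the libraries. The ratio to the control was 1.55 with GPNA (1.48 to 1.63) and 1.40 with BenSer (1.33 to 1.47).

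PPP1R15A (ENSG00000087074), known as GADD34, brings the phosphatase PP1 to eIF2alpha and so reverses the signal that raises ATF4. It had 43.5 and 46.0 CPM in the control libraries, 48.7 and 52.3 after GPNA, and 53.3 and 53.6 after BenSer. The treated libraries lay above the control by less than for TRIB3, with ratios of 1.13 (1.06 to 1.20) and 1.19 (1.13 to 1.26).

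The bZIP partners CEBPG and CEBPB had small ratios, within the range from 1.12 to 1.18. CEBPG (ENSG00000153879, chr19:33864591-33873592), a short C/EBP protein that pairs with ATF4, had 23.6 and 23.8 CPM in the control libraries, 27.8 and 26.8 after GPNA, and 26.7 and 28.4 after BenSer. Its ratios of 1.15 (1.06 to 1.247) and 1.16 (1.08 to 1.254) were close to each other, and the treated libraries overlapped.

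CEBPB (ENSG00000172216, chr20:48807367-48809205), which also forms pairs with ATF4 and CHOP, had 7.66 and 7.06 CPM in the control libraries, 8.84 and 8.53 after GPNA, and 8.89 and 7.58 after BenSer. With BenSer, 1 library lay within the control range, and the ratio of 1.12 (0.974 to 1.29) included no difference. With GPNA the ratio was 1.18 (1.02 to 1.36), an interval that reached 1 without the second control library or the first GPNA library. With TMM scaling or the size factors of DESeq2 the interval with BenSer lay above 1 as well. An antisense gene, CEBPB-AS1, shares 12.6% of the exon bases of CEBPB and was not analysed here.

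ATF3 (ENSG00000162772, chr1:212738676-212794119), an early stress-induced bZIP protein that represses many genes, had 16.3 and 15.9 CPM in the control libraries, 18.1 and 17.5 after GPNA, and 18.2 and 17.9 after BenSer. Its ratios of 1.10 (1.002 to 1.22) and 1.12 (1.02 to 1.23) lay barely above 1. The interval with GPNA reached 1 when any single library of the control or of GPNA was left out, and that with BenSer when the second control or the first BenSer library was. The treatments lay together and the control below them, at this single time of 48 h.

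ATF5 (ENSG00000169136, chr19:50431959-50437192), an ATF4 relative that responds to mitochondrial stress, was the only gene of the 10 that was lower with both treatments. It had 16.9 and 17.4 CPM in the control libraries, 13.3 and 12.8 after GPNA, and 14.98 and 15.3 after BenSer. The 3 groups did not overlap, with GPNA the lowest. The ratio was 0.760 with GPNA (0.685 to 0.844), at rank 18573 of 18828 genes by the log2 difference, and 0.881 with BenSer (0.801 to 0.969). With TMM scaling or the size factors of DESeq2, or without the second control library, the interval with BenSer reached 1, and that with GPNA stayed below it.

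NUP62, a nuclear pore gene, shares 19.5% of the exon bases of ATF5 on the opposite strand. The level of NUP62 was 72.0 CPM without treatment, 62.99 after GPNA and 57.5 after BenSer, so it was also lower with both treatments but lowest with BenSer. Its part in the values of ATF5 was not tested.

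Counting intervals of the ratio to the control lay above 1 for 9 of the 10 genes with GPNA, against 9.78% of all genes tested, and below 1 for ATF5, against 20.1%. With BenSer they lay above 1 for 8 genes, against 18.2% of all genes, and below 1 for ATF5, against 25.8%. These intervals hold no spread between cultures, so they say only that read sampling does not cover the differences.

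**Figure D3:**
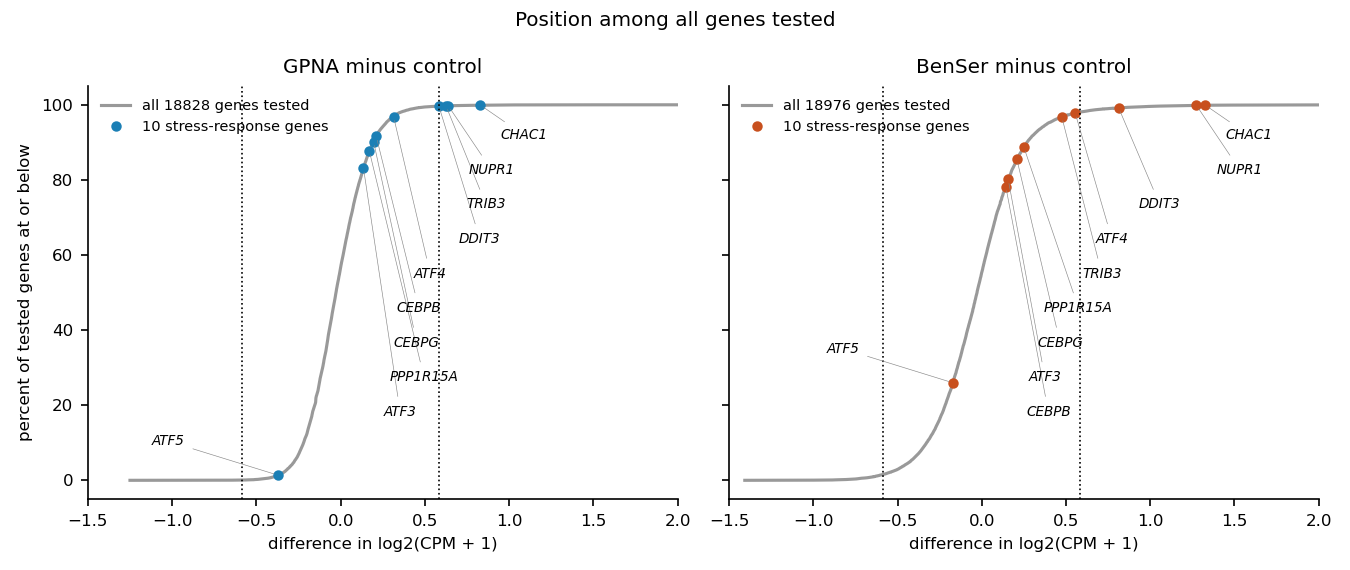
Share of all tested genes (vertical axis, percent) at or below each difference in log2(CPM + 1) from the control (horizontal axis), with the 10 genes as points and dotted lines at 1.5-fold. CHAC1, NUPR1 and DDIT3 lie above 99% of genes in both panels, and ATF5 lies in the lower part of both.

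BenSer was also set beside GPNA without the control, with the reservation that the doses differed (10 mM and 1 mM). The paper also proposes effects of BenSer apart from ASCT2, and cites its inhibition of the amino acid transporter LAT1 in oocytes. Dose and target cannot be told apart in this comparison. NUPR1 was 1.57-fold higher with BenSer (1.48 to 1.67) and was the only gene of the 10 past 1.5-fold, compared with 1.05% of 19056 genes higher and 0.813% lower. CHAC1 followed at 1.47-fold (1.29 to 1.66), then DDIT3 at 1.19-fold (1.06 to 1.34), ATF4 at 1.18-fold (1.15 to 1.22) and ATF5 at 1.16-fold (1.05 to 1.28). TRIB3 was lower with BenSer, at a ratio of 0.900 (0.863 to 0.939).

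For ATF3, CEBPB and CEBPG the libraries of both treatments overlapped. Their BenSer to GPNA ratios were 1.02 (0.931 to 1.11), 0.948 (0.834 to 1.08) and 1.01 (0.940 to 1.08). PPP1R15A had a ratio of 1.06 (1.01 to 1.11). Intervals lay above 1 for 6 genes, against 21.2% of all genes, and below 1 for TRIB3, against 20.7%. The interval of DDIT3 reached 1 without the second GPNA library or the first BenSer library, and that of PPP1R15A without the first GPNA library, without either BenSer library, or with scaling to the listed genes. By library, 6 genes were higher with BenSer without overlap (31.7% of all genes) and TRIB3 was lower (33.6%).

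A limma test of log2(CPM + 1), which treats the libraries as replicates and so compares libraries and not treatments, called 5 genes higher with GPNA at an adjusted p under 0.05 (ATF4, CHAC1, DDIT3, NUPR1 and TRIB3), where 1.19% of 19216 genes were, and ATF5 lower, where 1.42% were. With BenSer it called the same 5 genes with CEBPG and PPP1R15A higher (11.1% of genes) and ATF5 lower (16%). The limma call of CEBPG (adjusted p 0.0400) was lost with a replicate block (0.0675) and with a pseudocount of 0.1 (0.0639). That of PPP1R15A (0.0297) was lost with a pseudocount of 0.1 (0.0554). Both calls held with TMM scaling, without a filter, by edgeR and by DESeq2. The call of ATF5 with BenSer stood at an adjusted p of 0.0499 by limma. It was lost in every alternative except limma with a mean-variance trend (0.0371), with adjusted p from 0.0505 without a filter to 0.413 by DESeq2. Between BenSer and GPNA, limma called ATF4, ATF5, CHAC1, DDIT3 and NUPR1 higher with BenSer (10.6%) and none lower (10.9%). TRIB3 was called lower by edgeR, DESeq2 and limma with a mean-variance trend. Adjusted p by limma was 0.0393 for ATF5 and 0.0461 for DDIT3. Both calls were lost with a replicate block (0.0686 and 0.0631), a pseudocount of 0.1 (0.0569 and 0.0750) and DESeq2 (0.138 and 0.183). They held with TMM scaling, without a filter, by edgeR and by limma with the trend. No call with GPNA remained by limma when any single library was left out.

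The steps that lead to ATF4 were described through 21 genes of eIF2alpha phosphorylation and eIF2 exchange (kinases, eIF2 and eIF2B subunits, phosphatase parts), all of them measured. None was at least 1.5-fold different with GPNA, and EIF2AK2 alone was higher with BenSer (of all genes, 1.96% higher and 1.58% lower). EIF2AK2, the kinase PKR that is activated by double-stranded RNA and induced by interferon, was at 113.5 CPM in untreated cells, 158 after GPNA and 196 after BenSer. The medians of the 21 genes were -0.033 with GPNA and -0.061 with BenSer on the log2(CPM + 1) scale. On it, 6 genes were higher and 15 lower with GPNA, and 8 and 13 with BenSer. The lowest with BenSer were EIF2B3 (ratio 0.676, 0.604 to 0.756), EIF2B5 (0.785, 0.737 to 0.836) and EIF2S3 (0.797, 0.773 to 0.822). EIF2B3, at a log2 difference of -0.52, stayed inside the 1.5-fold limit. Without the first BenSer library, 1 gene of the list was past that limit downwards. EIF2AK4, which encodes GCN2, had ratios of 0.930 (0.895 to 0.967) and 0.916 (0.883 to 0.9501). EIF2AK3, the kinase PERK, went the other way, with ratios of 1.23 (1.10 to 1.38) with GPNA and 1.18 (1.05 to 1.32) with BenSer. The remaining kinase of the list, EIF2AK1, had ratios of 0.999 (0.960 to 1.04) and 1.05 (1.01 to 1.09).

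Among 53 further genes commonly given as ATF4 targets, 52 were in the tables. With GPNA, 3 of the 51 that passed the filter were past 1.5-fold upwards and none downwards, at a median difference of 0.17. With BenSer, 20 of 52 were higher and none lower, at a median of 0.45. Set directly beside GPNA, 5 of 52 were at least 1.5-fold higher with BenSer and none lower, at a median of 0.24. Of all genes tested, 0.34% were higher and 0.0637% lower with GPNA, 1.96% and 1.58% with BenSer, and 1.05% and 0.813% between the treatments. The medians of all genes were -0.028 with GPNA, -0.028 with BenSer and -0.0093 between the treatments. This list was written with earlier results of these data known.

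With GPNA, the 3 genes were SESN2, an inhibitor of mTORC1 (ratio 1.90, 1.61 to 2.25), ASNS, asparagine synthetase (1.66, 1.55 to 1.77), and PCK2, the mitochondrial PEP carboxykinase (1.60, 1.42 to 1.81). The largest differences with BenSer were those of GDF15, a secreted stress cytokine (2.82, 2.57 to 3.11), TXNIP (2.47, 2.38 to 2.55), ASNS (2.31, 2.17 to 2.45) and CBS, cystathionine beta-synthase (2.12, 1.84 to 2.45). TXNIP limits glucose uptake and is better known as a target of MondoA than of ATF4. PCK2 had a ratio of 1.43 with BenSer (1.27 to 1.62), below that with GPNA, and the 2 intervals overlapped. Both intervals share the control reads, so their overlap does not compare BenSer with GPNA.

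Of 44 other bZIP genes, 39 were in the tables and 38 had enough reads in each comparison with the control. JDP2 alone was at least 1.5-fold higher with GPNA, and JDP2, TEF and CREB3L1 were with BenSer, while none was 1.5-fold lower. With a pseudocount of 0.1 or none, 3 were higher and 1 lower with GPNA, and 5 and 1 with BenSer. Of all genes, a pseudocount of 0.1 put 4.67% higher and 3.46% lower with GPNA, and 6.35% and 7.36% with BenSer. The genes added were BATF2 and HLF with GPNA, BATF2 and FOS with BenSer, and BATF3 downwards with both. BATF3 averaged 0.324 CPM in the control, 0.117 after GPNA and 0.078 after BenSer. JDP2, a repressor related to ATF3, had 6.11 and 5.85 CPM in the control libraries, 10.8 and 9.70 after GPNA, and 16.1 and 16.3 after BenSer. These steps are ratios of 1.71 (1.48 to 1.99) and 2.71 (2.37 to 3.10), larger than those of ATF3 itself.

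Of 12 homologues of the 10 genes, 9 were in the tables and passed the filter, and JDP2 alone was past 1.5-fold in the comparisons with the control. The lists share genes, so this is the same JDP2 result as among the bZIP genes. ATF1, ATF2, ATF7 and CEBPD are in both of these lists as well. PPP1R15B is also in the eIF2alpha list, and TNFRSF10B is in the lists of ATF4 targets and of death effectors. CHAC2, which has the same enzyme activity as CHAC1, had 4.48 and 4.59 CPM in the control libraries, 2.95 and 3.14 after GPNA, and 2.98 and 2.50 after BenSer. It was thus lower where CHAC1 was higher, with ratios of 0.671 (0.542 to 0.830) and 0.605 (0.493 to 0.743), although its log2 differences of -0.45 and -0.56 stayed inside the 1.5-fold limit. With BenSer it was past that limit with pseudocounts of 0.1 (-0.70), 0.5 (-0.63) or none (-0.72), when scaled to the listed genes (-0.62) and without the first BenSer library (-0.66). TRIB1, a relative of TRIB3, had ratios of 1.03 (0.983 to 1.07) and 1.01 (0.969 to 1.05), and TRIB2 of 0.938 (0.853 to 1.03) with GPNA and 1.33 (1.22 to 1.44) with BenSer. PPP1R15B, the constitutive counterpart of PPP1R15A, had ratios of 0.988 (0.948 to 1.03) and 1.18 (1.13 to 1.22).

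Of 15 genes for cell death and redox effectors downstream of CHOP, all had enough reads and none was 1.5-fold different in either comparison with the control. Their medians were 0.027 with GPNA and 0.0084 with BenSer. TNFRSF10B, the death receptor DR5 that CHOP can induce, had a BenSer ratio of 1.01 (0.944 to 1.07). On the log2(CPM + 1) scale, BCL2, which CHOP can repress, had the lowest difference of the list with BenSer, at -0.28. PMAIP1 (NOXA) had the highest on that scale, at 0.39 (ratio 1.33, 1.23 to 1.43). Without a pseudocount, 1 gene of the list was past 1.5-fold upwards with GPNA, and 1 upwards and 1 downwards with BenSer. Of all genes, 6.74% were then higher and 5.1% lower with GPNA, and 8.19% and 9.39% with BenSer.

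**Figure D4:**
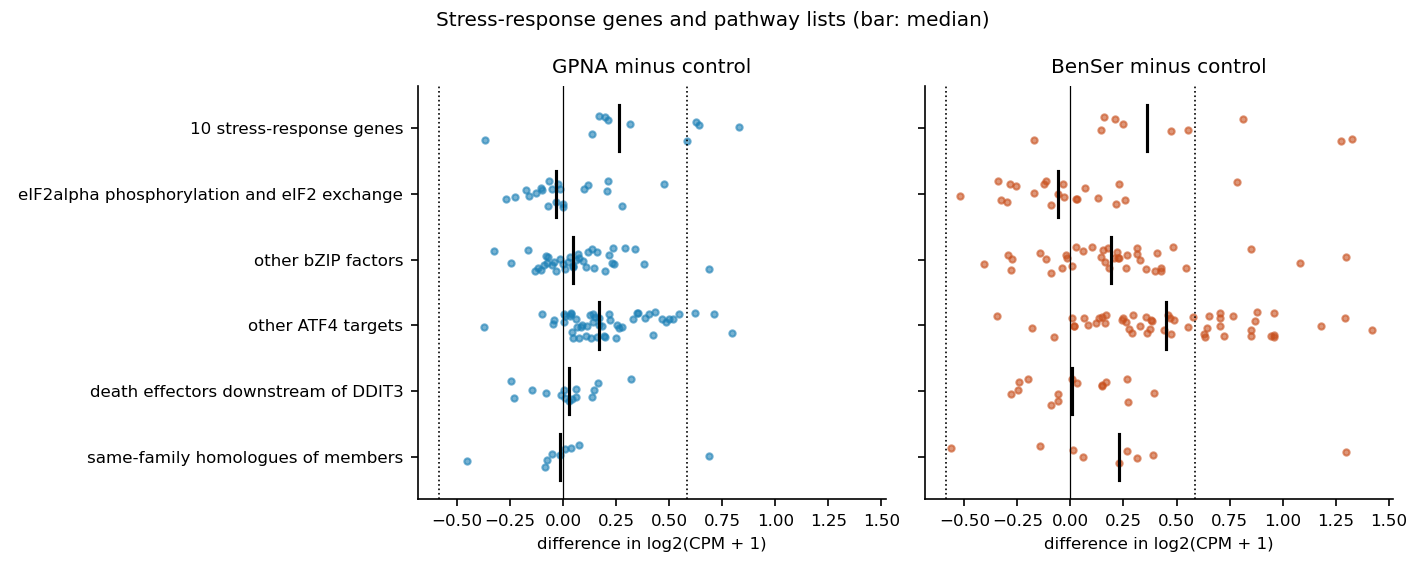
Difference from the control in log2(CPM + 1) (horizontal axis) for each gene of the 10 and of 5 pathway lists, with the median as a bar and dotted lines at 1.5-fold. The ATF4 targets lie mostly right of 0 and farther right with BenSer, where 20 of 52 pass the dotted line (1.96% of all genes). The eIF2alpha and death effector lists lie around 0.

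The genes nearest to ATF4 were searched among the 7917 others with a mean of at least 10 CPM, by distance in the plane of the differences with GPNA and with BenSer, which rest on 3 groups. The nearest were HBP1 (distance 0.024 on the log2 scale), NPNT, GUCY1A3, PKIB and TFPI, the last of these at 0.038. HBP1 had log2 differences of 0.29 and 0.55, compared with 0.31 and 0.55 for ATF4. For DDIT3 the nearest were CCNG2 (0.027), ITGB6 (0.046) and WIPI1 (0.062).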

How the data were processed

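Total RNA of PC-3 cells was sequenced as stranded paired-end libraries, and the authors trimmed the reads, used TopHat2 for mapping (hg19/GRCh37.p13) and counted reads for each gene (the submitters' processing notes name HTSeq 0.6.2p2). The strand setting of the counting is not given in the sources used here. The deposited values are CPM, although their headers name counts. All values (100%) were whole reads over the library total within 0.01 reads, so reads were recovered. Columns 1 and 2 of each group carry sample labels. The methods speak of 4 replicates, but the other 8 of 16 value columns were not used here, nor were the deposited fold changes, p-values and false discovery rates of the authors' comparisons.

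The 10 genes, the gene lists, the rule for named genes and the tests were chosen with earlier results of these data known. Between the libraries of a group, a chi-square over genes (20 or more reads) gave p from 1.29e-08 to 3.24e-05, so sampling does not cover all of the difference, but the excess is small beside that between groups. Nothing says that these libraries came from separate cultures, so their spread may be technical. Means of both columns were compared as log2(CPM + 1) and as ratios with 95% Clopper-Pearson intervals. Named genes of a list are the up to 4 with the largest difference past 1.5-fold in a comparison with the control at 1 CPM or more. The homologues, and the genes nearest to ATF4 and DDIT3, were named in addition. MARS, NUP62, EIF2AK1, EIF2AK3, EIF2AK4, EIF2B3, EIF2B5, EIF2S3, BATF2, BATF3, FOS, HLF, TNFRSF10B, BCL2 and PMAIP1 were named after their values were seen. A test by limma 3.58.1 on log2(CPM + 1), in R 4.3.3, compares these libraries and not the treatments. Other pseudocounts, filters, scalings and fold limits, single libraries left out, a replicate block, and count tests of the reads by edgeR 4.0.16 and DESeq2 1.42.0 were the alternatives tried. The fold call and limma were tested on simulated data. Exon lengths and overlaps came from GENCODE v44 lifted to GRCh37. Python 3.11.15 with numpy 2.4.6, pandas 2.3.3, scipy 1.17.1 and matplotlib 3.10.9 was used.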

Additional observations from a re-analysis of the deposited data

How the results depend on the processing

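Of 300 alternative values of the 10 genes' log2 differences, 295 kept their sign. The other 5 were BenSer against GPNA, where main values were near 0: ATF3 (0.02) became -0.0020 without the second GPNA library, CEBPG (0.01) became -0.0046 scaled to the listed genes, -0.013 without the second GPNA library and -0.031 without the second BenSer library, and CEBPB (-0.07) became 0.03 without the second BenSer library. With a lower limit of 0.32 on the log2 scale, 5 of the 10 genes differed with GPNA, 5 with BenSer and 2 between the treatments. Of all genes, 2.86% were then higher and 2.74% lower with GPNA, 7.36% and 10.3% with BenSer, and 6.86% and 7.08% between the treatments. With a limit of 2-fold, the counts of the 10 genes were 0, 2 and 0. The shares of all genes were then 0.0425% higher and 0.00531% lower, 0.437% and 0.0474%, and 0.105% and 0.0525%. The number of all genes past 1.5-fold, 64 higher and 12 lower with GPNA and 371 and 300 with BenSer, was 879 and 652, and 1205 and 1397, with a pseudocount of 0.1; 155 and 77, and 520 and 492, with 0.5; 1269 and 961, and 1554 and 1782, with none; 171 and 56, and 528 and 442, scaled to the listed genes; and 82 and 9, and 432 and 214, with TMM scaling. Pseudocounts, filters and scalings gave 3 or 4 genes with each treatment. The median of all genes moved from -0.028 to 0.0022 (GPNA) and 0.0028 (BenSer) with TMM scaling. With single libraries left out, the count past 1.5-fold was 3 to 4 with GPNA, 3 with BenSer and 1 between the treatments. Of all genes, 0.394% to 0.477% were then higher with GPNA, 1.99% to 2.17% with BenSer and 1.11% to 1.19% between the treatments. The shares lower were 0.122% to 0.143%, 1.69% to 1.84% and 0.924% to 0.997%. The genes with an interval above 1 numbered 7 to 8, 7 to 9 and 4 to 5. With all libraries, 9.78%, 18.2% and 21.2% of all genes had such an interval.

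By limma at an adjusted p under 0.05, which compares libraries only, 6 of the 10 genes were called with GPNA, 8 with BenSer and 5 between BenSer and GPNA. Of all genes, 1.19% were higher and 1.42% lower with GPNA, 11.1% and 16% with BenSer, and 10.6% and 10.9% between the treatments. The replicate numbers pair nothing, since same-numbered libraries had correlations of deviations of 0.017 to 0.023. With the replicate block, 0 genes were called with GPNA (3 of all 19216 genes, and 4793 at an unadjusted p under 0.05), 6 with BenSer and 3 between the treatments. With this block, 9.45% of all genes were higher and 13.9% lower with BenSer, and 8.52% and 8.4% between the treatments. A pseudocount of 0.1 gave 1, 5 and 3 genes. Its shares of all genes were 0.172% higher and 0.0416% lower, 8.5% and 12.7%, and 7.25% and 7.56%. Fits with single libraries left out gave fewer calls in each comparison, but they assume that a group of 1 library varies like the others. The edgeR test called 9, 8 and 6 genes (of all genes, 7.63% higher and 8.83% lower, 18.7% and 17.8%, and 18.2% and 16.3%), DESeq2 7, 7 and 4 (2.9% and 3.64%, 11.2% and 10.5%, and 10.4% and 8.63%), and limma with a mean-variance trend, chosen after the data were seen, 8, 9 and 6 (6.47% and 14.4%, 15.3% and 21.5%, and 17.1% and 16.3%). The cause of these differences was not tested. Depth limits CHAC1 and DDIT3 most, with 181 and 262 control reads.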
